A study of Homo sapiens with 6 samples.

Results

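The genes described here are 9 genes of antigen presentation: beta-2-microglobulin (B2M), the class I heavy chains HLA-B, HLA-C and HLA-E, the peptide transporter subunits TAP1 and TAP2, the transcriptional coactivators NLRC5 and CIITA, and the invariant chain CD74. They were picked by gene symbol, and all 9 of 9 were found among the 22496 symbols of the deposited lists. The lists come from LoVo, an established human colon adenocarcinoma cell line, in 3 libraries labelled SHARPIN knockout and 3 labelled non-target, the control genotype. SHARPIN belongs to the complex that builds linear ubiquitin chains, a signal used by the NF-kB route. Both groups are unstimulated as far as the labels say, and the labels name neither clones, guides nor separate cultures, so every p-value below reflects variation among libraries that may be only technical.

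A class I molecule is a heavy chain held together by the light chain beta-2-microglobulin and by a peptide, which the TAP1 and TAP2 heterodimer pumps from the cytosol into the endoplasmic reticulum. The light chain is shared by every class I heavy chain, and NLRC5 is the coactivator that drives the class I genes, the light chain gene and TAP1. CIITA is the related master coactivator of class II genes, and CD74 is the chaperone that fills the groove of class II molecules until endosomal proteases cut it away. Colon epithelium normally displays class I constitutively and class II mainly when exposed to interferon-gamma. LoVo is known to carry mutations that disable the B2M protein, so its transcript level is not a measure of class I at the surface.

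MHC promoters are known for elements through which both coactivators and the interferon and NF-kB routes act. The promoters of 5 genes are shown because these genes gave the clearest differences or stand beside each other as class I and class II examples. Each is the stretch of 200 bases before the annotated start, 5′ to 3′ on the gene's strand, from RefSeq on GRCh38.p14. Capitals mark letter matches to any of 5 motifs.
B2M: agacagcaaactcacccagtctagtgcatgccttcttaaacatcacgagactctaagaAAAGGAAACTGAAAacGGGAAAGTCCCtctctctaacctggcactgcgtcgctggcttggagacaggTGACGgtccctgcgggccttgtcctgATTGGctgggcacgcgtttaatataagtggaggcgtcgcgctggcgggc
HLA-B: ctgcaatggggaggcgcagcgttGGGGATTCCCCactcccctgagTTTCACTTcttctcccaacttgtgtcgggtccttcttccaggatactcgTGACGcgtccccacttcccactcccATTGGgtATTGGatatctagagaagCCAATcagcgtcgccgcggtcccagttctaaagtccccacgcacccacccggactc
HLA-C: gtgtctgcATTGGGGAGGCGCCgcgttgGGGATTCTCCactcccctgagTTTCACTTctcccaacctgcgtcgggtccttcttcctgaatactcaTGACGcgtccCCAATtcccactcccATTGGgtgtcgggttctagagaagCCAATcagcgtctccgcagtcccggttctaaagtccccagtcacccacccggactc
CD74: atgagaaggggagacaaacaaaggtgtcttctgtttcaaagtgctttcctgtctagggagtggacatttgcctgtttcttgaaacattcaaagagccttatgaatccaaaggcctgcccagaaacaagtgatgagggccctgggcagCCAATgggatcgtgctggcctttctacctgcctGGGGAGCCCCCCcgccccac
HLA-DRB1: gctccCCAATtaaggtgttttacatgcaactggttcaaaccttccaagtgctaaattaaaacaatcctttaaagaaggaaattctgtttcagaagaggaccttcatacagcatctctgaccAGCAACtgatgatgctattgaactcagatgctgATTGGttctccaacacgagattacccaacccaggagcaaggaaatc

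The stretches lie at chr15:44711317-44711516 on the plus strand for B2M, and on the minus strand at chr6:31357180-31357379 for HLA-B, chr6:31272093-31272292 for HLA-C, chr5:150412911-150413110 for CD74 and chr6:32589849-32590048 for HLA-DRB1. The motifs searched on both strands were CCAAT (the core of the Y box bound by NF-Y), TGACG (part of a CRE, bound by CREB and ATF1), AGCAAC (part of the X box bound by the RFX complex), AANNGAAA (a loose interferon-response core) and a loose kB motif, which is GGG and CC with 5 bases of any kind between them. Among 35116 promoter entries of the same length they occurred in 28.0%, 18.4%, 8.44%, 16.1% and 49.5%. Of the 9 genes, 6 had a promoter entry; HLA-E, NLRC5 and CIITA had none. CCAAT was found in 4 of the 6 (B2M, HLA-B, HLA-C and CD74), TGACG also in 4 (B2M, HLA-B, HLA-C and TAP2) the interferon-response core in 5 (those 4 and TAP1), the kB motif in all 6 and AGCAAC in 0. The B2M, HLA-B and HLA-C stretches thus hold the same 4 kinds of match in the same order, kB and interferon-response letters upstream, then TGACG and, nearest the start, CCAAT, except that in B2M the interferon-response letters lie upstream of the kB letters and that HLA-C has an extra CCAAT match at its far end. Of the bases of HLA-B and HLA-C that align, 91.3% are identical. Of the 11 class II genes on the list used below, 10 had an entry, of which 9 hold CCAAT, 4 hold AGCAAC and 0 hold the interferon-response core. These counts are per gene, with a match in any entry counted, while the shares above are per entry. TAP1 and HLA-DPA1 have 2 entries each, so the units differ. Some matches overlap each other, such as kB matches on the 2 strands, and a match describes letters, not a bound site.

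**Figure D1:**
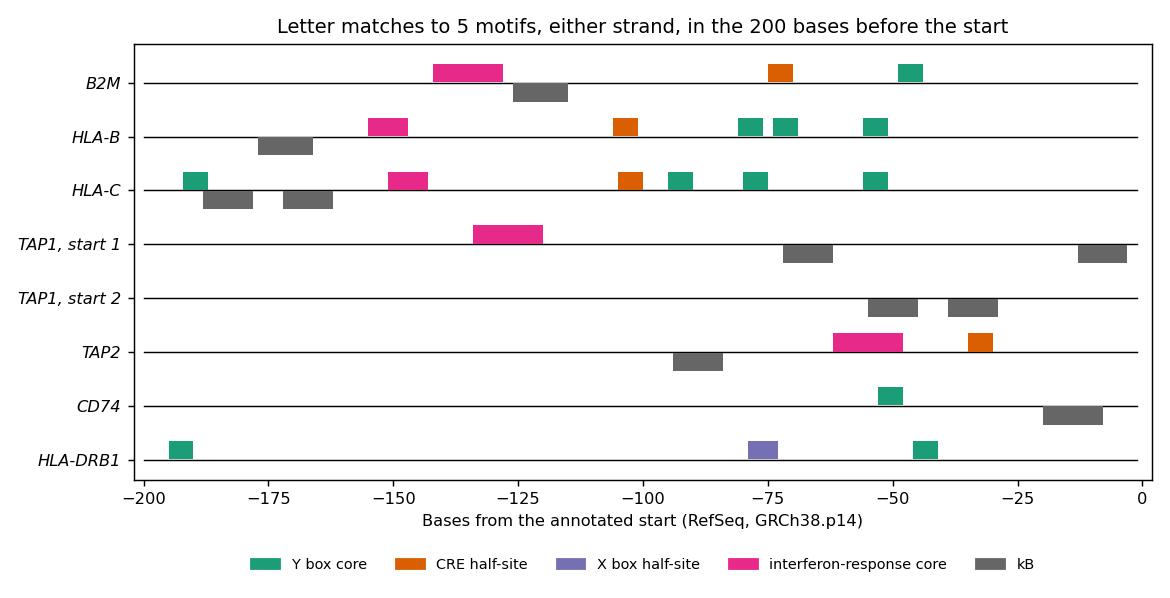
Positions of the 5 motifs in the 200 bases before each annotated start, for 6 of the 9 genes (TAP1 with both of its entries) and HLA-DRB1 as a class II example. The x axis is the distance from the start in bases, and boxes above each line are all motifs but kB, which is drawn below it. B2M, HLA-B and HLA-C carry matches to every motif but the X box one, while CD74 carries only Y box and kB matches.

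The libraries listed between 19068 and 20158 genes, and an estimate from the smallest steps in the values put 21100000 to 22500000 fragments behind each, so depth was similar. The deposited unit is FPKM, fragments scaled to transcript length and to the mapped total of the library. A gene was tested where it had at least 1 FPKM in at least 3 of the 6 libraries, on the log2(FPKM + 1) scale with limma, and the threshold was an adjusted p of 0.05. Of 13092 genes tested, 12.2% passed (6.26% higher and 5.93% lower in knockout), and the median log2 fold change was 0.02. The share of higher genes among those past the threshold was 51.3%, against 41.0% with the libraries rescaled to TPM. SHARPIN itself stood at 7.55, 11.9 and 18.05 FPKM in the libraries labelled knockout and at 11.9, 13.9 and 12.9 FPKM in the non-target libraries, and did not pass (log2 fold change -0.12 ± 0.26, SE; limma adjusted p = 0.827). The position of the edit is not given in the labels, and transcript level alone therefore says nothing about whether the protein was lost. Colon epithelial markers were present in both groups, with EPCAM at 165 ± 32.4 FPKM in knockout and 195 ± 2.74 FPKM in non-target (SD, n = 3 each). Of 9 such markers, 1 rose (KRT20) and 3 fell (GPA33, VIL1 and CDX1), and the median log2 fold change was 0.19. VIL1 and CDX1 reached 1 FPKM only in the non-target libraries. In a fit with no filter, where 7.89% of all genes passed, their limma adjusted p was 0.00642 and 0.00226. GPA33, an intestinal surface antigen, averaged 1.48 ± 0.881 FPKM in knockout and 46.7 ± 5.77 FPKM in non-target (SD, n = 3 each), a log2 fold change of -4.31. The part that this difference between the groups has in the results below was not tested. The KRT20 call needed non-target replicates 2 and 3 and knockout replicate 2, with adjusted p between 0.0703 and 0.109 in fits lacking one of them, and it was also lost with no filter (0.0651).

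Of the 9 genes, 8 could be tested, and of these CD74 rose and B2M fell, while 6 did not pass. Of all genes tested, 12.2% passed, 6.26% as higher and 5.93% as lower. CIITA was below the filter on low values. The median log2 fold change of the 8 was 0.30. The libraries of the 2 groups did not overlap in 5 of the 8 (HLA-B, HLA-C, TAP1 and CD74 above non-target, B2M below). Among all genes tested 32.1% did not overlap, 16.5% with knockout above and 15.7% with knockout below. CIITA was also higher in each knockout library.

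**Figure D2:**
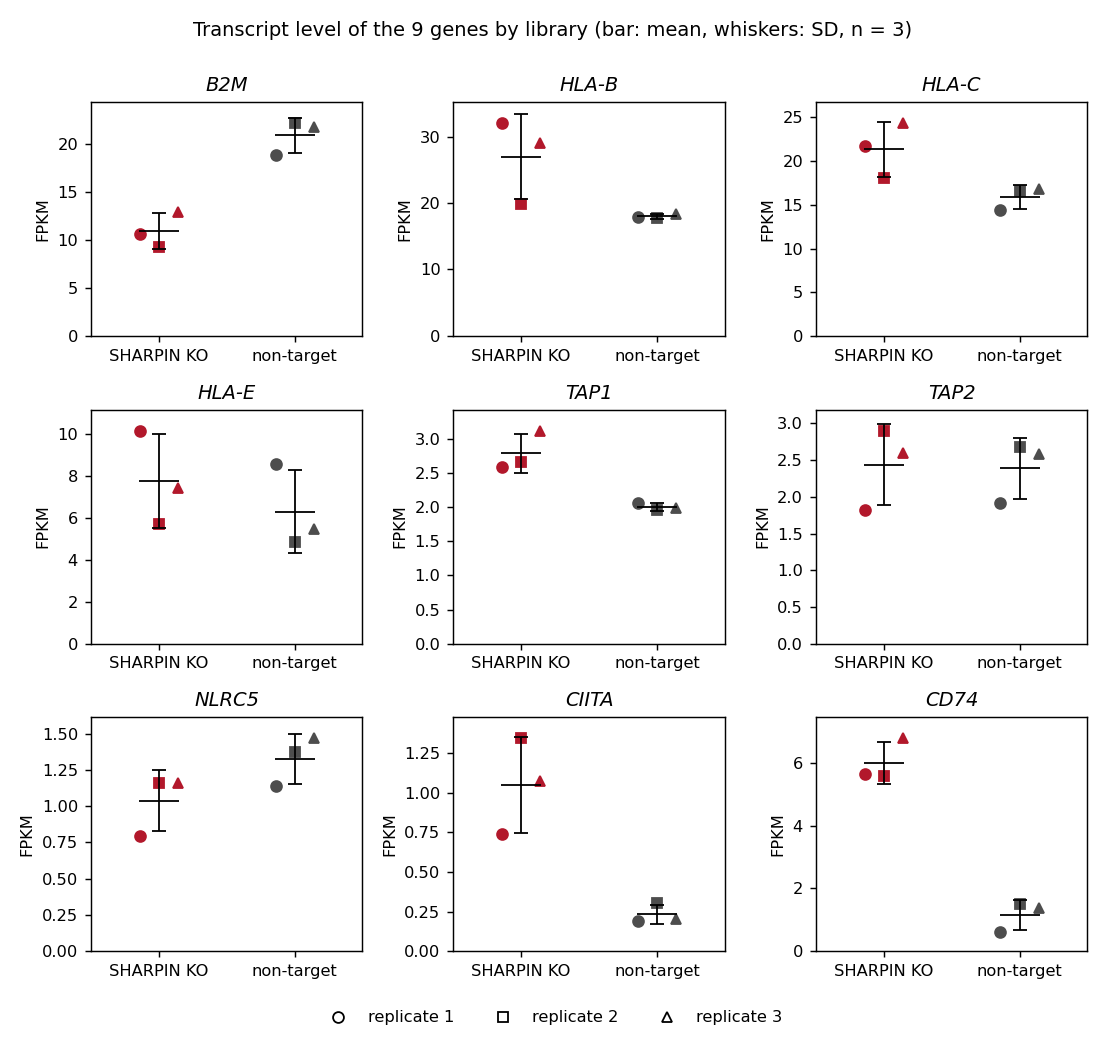
FPKM of the 9 genes in each library, with knockout left of non-target; symbols mark the replicate number, the bar the mean and the whiskers the SD (n = 3). CD74, CIITA, HLA-B, HLA-C and TAP1 lie higher in every knockout library than in any non-target library, and B2M lies lower.

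B2M, the class I light chain (chromosome 15, 45003556 to 45011049, GRCh37), had 10.6, 9.21 and 12.9 FPKM in knockout replicates 1, 2 and 3, against 18.8, 22.1 and 21.7 FPKM in non-target replicates 1, 2 and 3. Every knockout library was below every non-target library. With 3 libraries a group, the knockout mean was 0.523 times the non-target mean and the log2 fold change -0.88 ± 0.17 (SE; limma adjusted p = 0.00924). Ranked by mean level among all 22496 symbols, B2M stood at place 5290 in knockout and at place 2788 in non-target. Leaving out non-target replicate 2 (adjusted p = 0.0525) or non-target replicate 3 (adjusted p = 0.0518) ended the call. In bulk RNA, fewer cells with a transcript and less of it per cell cannot be told apart.

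HLA-B and HLA-C, the classical heavy chains among the 9, were higher in the knockout libraries but did not pass. HLA-B (chromosome 6, 31321649 to 31334844) had 32.0, 19.8 and 29.0 FPKM in knockout replicates 1, 2 and 3, against 17.9, 17.7 and 18.3 FPKM in non-target replicates. Knockout replicate 2 lay close to the non-target range, while knockout replicates 1 and 3 stood well above it. HLA-B differed by 0.53 ± 0.20 on the log2 scale (SE; limma adjusted p = 0.12). With the replicate number as a block, a fit in which 25.3% of all genes passed, the adjusted p was 0.0113, and without knockout replicate 2 it was 0.039. The blocked fit takes its spread mainly from all genes together, so here and below its p-values hardly reflect the spread of a single gene.

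HLA-C (chromosome 6, 31236526 to 31239907) had 21.7, 18.1 and 24.3 FPKM in knockout replicates 1, 2 and 3, against 14.4, 16.6 and 16.8 FPKM in non-target replicates. Knockout replicate 2 was again the lowest of its group. The difference was 0.40 ± 0.17 on the log2 scale (SE; limma adjusted p = 0.18).

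HLA-E, the nonclassical heavy chain that engages an inhibitory receptor of natural killer cells, had 10.1, 5.71 and 7.42 FPKM in knockout and 8.56, 4.84 and 5.48 FPKM in non-target replicates 1, 2 and 3. The groups overlapped, and replicate 1 was the highest library in both (log2 fold change 0.27 ± 0.25, SE; limma adjusted p = 0.561). Transcripts of the heavy chains are alike: the reference transcripts of HLA-B and HLA-C are identical at 92.5% of 1535 aligned bases, and those of HLA-B and HLA-E at 82.6% of 1491. Of all windows of 50 bases in the HLA-B transcript, 2.02% also occur in that of HLA-C. How the authors assigned fragments shared between such genes was not given in the sources used here, and the cell line's own alleles can differ from the reference, so single heavy chain levels are uncertain.

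The lesser heavy chain genes were low and did not pass. HLA-F averaged 1.83 ± 0.321 FPKM in knockout and 1.38 ± 0.0663 FPKM in non-target (SD, n = 3 each; adjusted p = 0.385), and the pseudogene HLA-H 2.08 ± 0.324 FPKM in knockout and 1.32 ± 0.0606 FPKM in non-target (adjusted p = 0.137). All knockout libraries lay above all non-target libraries for both, as they did for 16.5% of all genes tested. Knockout replicate 2 was the lowest of its group for HLA-F and HLA-H too.

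Set against each other inside a library, light and heavy chains gave a ratio that does not depend on how libraries are scaled. B2M was 0.198, 0.243 and 0.242 times the summed FPKM of HLA-B and HLA-C in knockout replicates 1, 2 and 3, and 0.581, 0.645 and 0.617 times that sum in non-target replicates. The groups did not overlap: the ratio averaged 0.228 ± 0.0257 in knockout and 0.614 ± 0.0321 in non-target (SD, n = 3 each; exact two-sided permutation p = 0.1, the smallest that 3 against 3 can give). B2M was lower and the sum higher in every knockout library, so this separation and its p were fixed by those values. The ratio is therefore a description and no further evidence. Knockout replicate 2, with the lowest sum of its group at 37.9 FPKM, also had the lowest B2M.

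**Figure D3:**
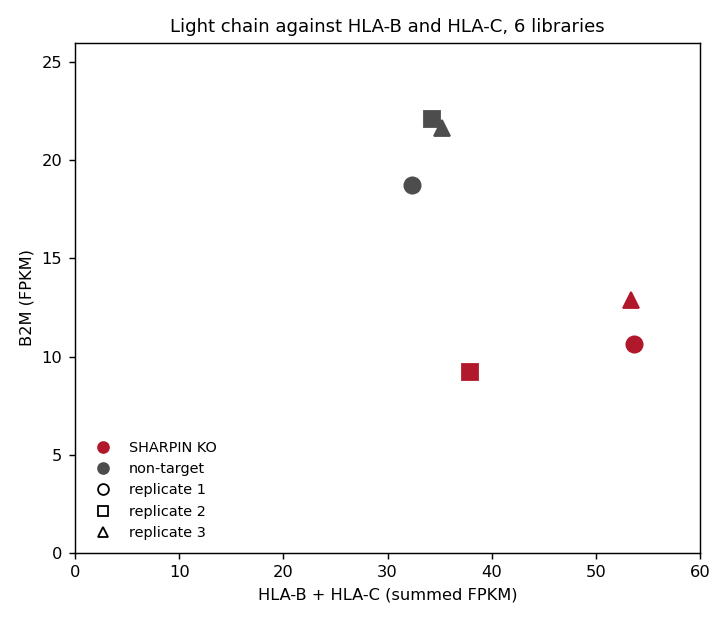
B2M (y axis, FPKM) against the summed FPKM of HLA-B and HLA-C (x axis) in the 6 libraries. The knockout libraries lie at lower B2M and at heavy chain sums of 37.9 to 53.7 FPKM, and the non-target libraries at higher B2M and at sums of 32.3 to 35.2 FPKM.

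Beta-2-microglobulin also pairs with class I-like proteins, and these went different ways. Of 12 heavy chain and class I-like symbols beside the 9 genes, not all of them partners of B2M, 7 were in the files and 5 were tested. Among these 1 rose, 1 fell and 3 did not pass (median log2 fold change 0.24), where 12.2% of all genes passed. FCGRT, the neonatal Fc receptor that salvages IgG and albumin, had 5.65, 4.15 and 5.55 FPKM in knockout, against 2.42, 0.799 and 0.711 FPKM in non-target replicates (log2 fold change 1.47 ± 0.27, SE; limma adjusted p = 0.00649). Non-target replicate 1 was the highest of its group, yet below every knockout library. HFE, the iron-sensing class I-like protein, had 3.34, 3.15 and 2.89 FPKM in knockout, against 7.22, 7.66 and 7.68 FPKM in non-target replicates (-1.05 ± 0.16, SE; limma adjusted p = 0.00225). MR1, which presents vitamin B metabolites, did not pass (1.095 ± 0.249 FPKM in knockout and 1.48 ± 0.334 FPKM in non-target; adjusted p = 0.418), and CD1A, CD1B, CD1C, CD1D and CD1E were listed in no library. HLA-G, low at 0.210 ± 0.0376 FPKM in knockout and 0.113 ± 0.00252 FPKM in non-target, and AZGP1 were below the filter.

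The transporter subunits were low and did not pass. TAP1 (chromosome 6, 32812986 to 32821593) had 2.58, 2.67 and 3.12 FPKM in knockout, against 2.07, 1.95 and 1.99 FPKM in non-target replicates. Each knockout library was above each non-target library, but the size was small (log2 fold change 0.33 ± 0.16, SE; limma adjusted p = 0.223). TAP2, which lies beside it at 32789610 to 32806516, had 1.82, 2.90 and 2.60 FPKM in knockout and 1.91, 2.67 and 2.58 FPKM in non-target replicates 1, 2 and 3. The values nearly coincided, and replicate 1 was the lowest in both groups (0.02 ± 0.19, SE; limma adjusted p = 0.97). The direction of TAP2 turns with the scaling of the libraries.

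Around the transporter, the chaperones of peptide loading split. Of 9 genes of loading and trimming, 1 rose, 1 fell and 7 did not pass (median log2 fold change -0.03; 1 and 3 with a replicate block). The shares of all genes that passed were 12.2%, and 25.3% with the block. Calreticulin (CALR), the soluble lectin chaperone of the loading complex, averaged 428 ± 84.0 FPKM in knockout and 222 ± 66.4 FPKM in non-target (SD, n = 3 each; log2 fold change 0.97 ± 0.26, SE; limma adjusted p = 0.0367). Calnexin (CANX), its membrane-bound relative, averaged 112 ± 15.3 FPKM in knockout and 179 ± 17.3 FPKM in non-target (-0.68 ± 0.17, SE; limma adjusted p = 0.0319). CALR was no longer called without non-target replicate 1 or knockout replicate 2 or 3, with median-ratio scaling (0.0502) or with no filter (0.0863), and CANX without non-target replicate 2 or 3 or knockout replicate 1 or 3 (adjusted p up to 0.119 for CALR and 0.167 for CANX). The peptide-trimming enzymes ERAP1 and ERAP2 passed as lower only with the block (adjusted p = 0.031 and 0.0167, against 0.084 and 0.0647 without it). ERAP2 reached the filter only through the non-target libraries. Tapasin (TAPBP), which bridges transporter and heavy chain, averaged 4.88 ± 0.477 FPKM in knockout and 4.16 ± 0.191 FPKM in non-target (adjusted p = 0.535).

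No gene of the immunoproteasome and proteasome activator list passed: 0 of 6 rose and 0 fell by limma, also with a replicate block, and 0 had an unadjusted p under 0.05 (median log2 fold change 0.07). Among all genes 12.2% passed, and 25.3% with the block, while 3338 of 13092 had an unadjusted limma p under 0.05. PSMB9, an interferon-induced catalytic subunit whose annotated span overlaps TAP1 on the opposite strand, had the smallest p, at 2.09 ± 0.307 FPKM in knockout and 1.82 ± 0.0869 FPKM in non-target (SD, n = 3 each; adjusted p = 0.665).

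**Figure D4:**
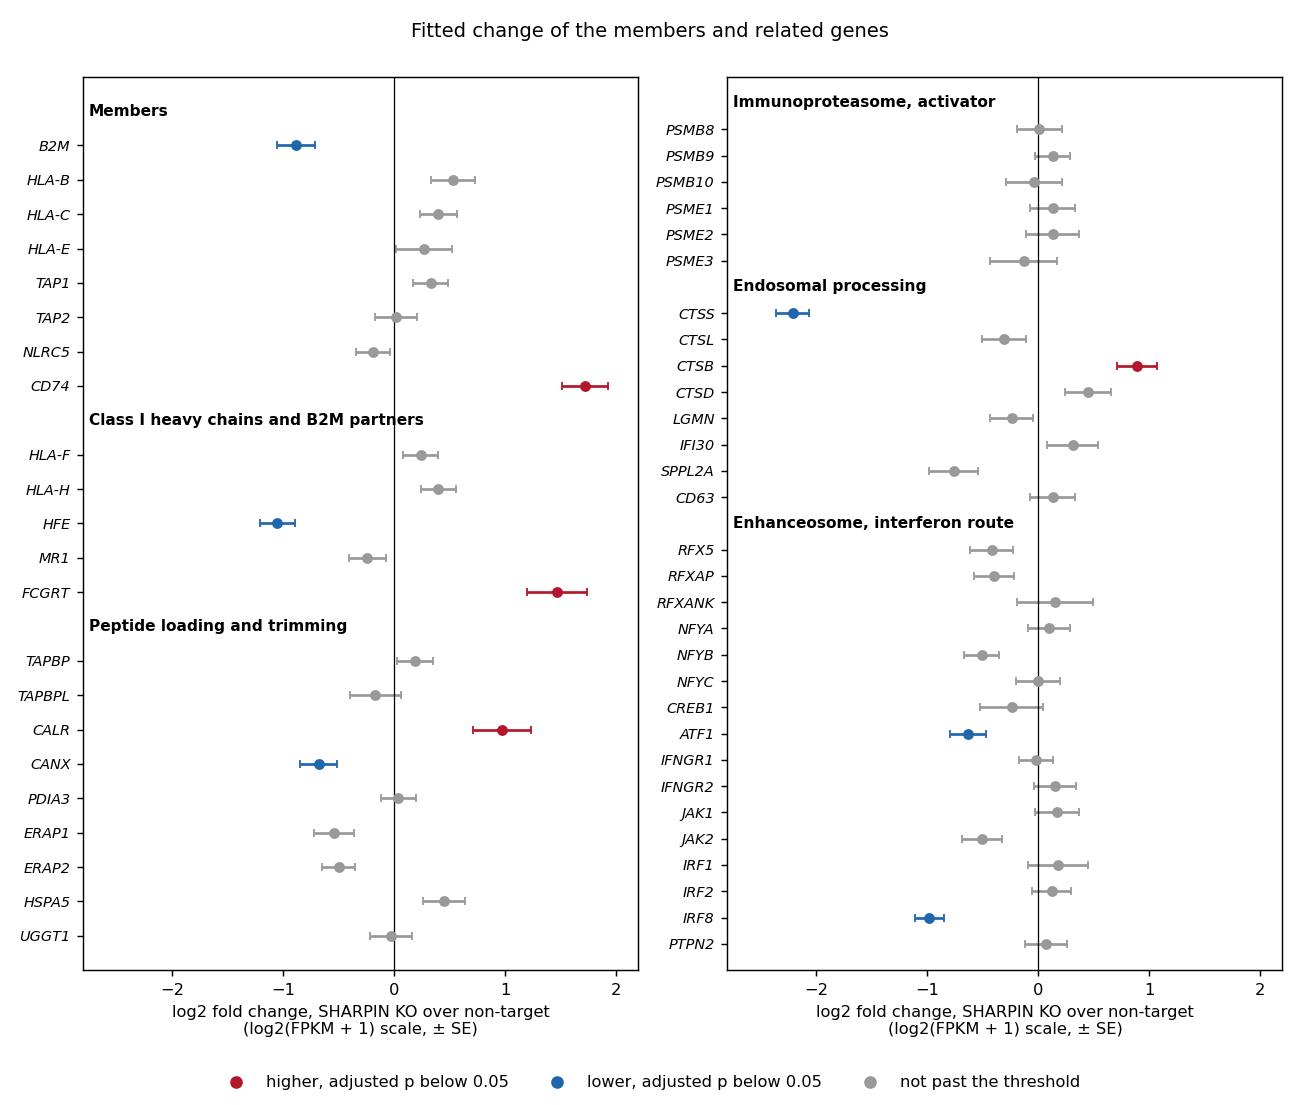
Log2 fold change of knockout over non-target with its SE, on the log2(FPKM + 1) scale, for the tested members and 5 lists of related genes; red marks genes that passed as higher, blue as lower and grey those that did not pass. CD74, FCGRT, CALR and CTSB lie to the right among those that passed, and CTSS lies farthest to the left at -2.21.

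NLRC5 (chromosome 16, 57023397 to 57117443), the class I coactivator, did not pass. It had 0.794, 1.16 and 1.16 FPKM in knockout and 1.14, 1.38 and 1.47 FPKM in non-target replicates 1, 2 and 3. The groups overlapped, and replicate 1 was the lowest in both (log2 fold change -0.19 ± 0.15, SE; limma adjusted p = 0.483).

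CIITA (chromosome 16, 10960079 to 11036878), the class II coactivator, had 0.738, 1.34 and 1.07 FPKM in knockout, against 0.191, 0.304 and 0.206 FPKM in non-target replicates 1, 2 and 3. All knockout libraries were above all non-target libraries, and the knockout mean was 4.50 times the non-target mean. Below the filter on low values, 6.04% of 9392 genes had every knockout library above every non-target one. In a fit with no filter, where 3.14% of 22484 genes passed as higher, CIITA rose (log2 fold change 0.72 ± 0.13, SE; limma adjusted p = 0.0217). Of all genes, 7.89% passed in either direction there. CIITA passed in that fit when knockout replicate 1 was left out, and did not when any other single library was (adjusted p up to 0.104). With a pseudocount of 0.1 in place of 1, where 8.31% of genes passed and 3.33% were higher, it also rose (1.77 ± 0.30, SE; limma adjusted p = 0.0138). The DEXI gene overlaps CIITA on the opposite strand.

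CD74, the invariant chain (chromosome 5, 149781200 to 149792532), had 5.65, 5.58 and 6.77 FPKM in knockout, against 0.605, 1.51 and 1.36 FPKM in non-target replicates 1, 2 and 3. The groups lay far apart, with an estimated 196 to 241 fragments in knockout and 22.5 to 52.5 in non-target libraries. The ratio of means was 5.18 and the log2 fold change 1.72 ± 0.21 (SE; limma adjusted p = 0.000684). Whichever single library was left out, CD74 passed (adjusted p up to 0.00921). It ranked at place 7747 of all symbols in knockout and at place 12666 in non-target.

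Transcripts of the class II molecules that CD74 serves were scarce, and several were higher in knockout. Of 11 class II genes, only HLA-DQB1 was high enough for the filter. In the fit with no filter 3 of the 11 rose, 0 fell and 8 did not pass. Of all genes in that fit, 3.14% passed as higher and 7.89% in either direction. HLA-DRA, the invariant alpha chain of HLA-DR, had 0.676, 0.658 and 0.808 FPKM in knockout, against 0.060, 0.181 and 0.224 FPKM in non-target replicates 1, 2 and 3. That is an estimated 17.3 to 21.5 fragments in knockout and 1.7 to 6.2 in non-target, so the size of the difference is imprecise (log2 fold change 0.57 ± 0.09, SE; limma adjusted p = 0.0142).

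HLA-DRB1, its beta chain, had 1.12, 0.892 and 1.42 FPKM in knockout, against 0.106, 0.296 and 0.316 FPKM in non-target replicates (0.79 ± 0.13, SE; limma adjusted p = 0.0164). HLA-DPA1 had 0.367, 0.283 and 0.268 FPKM in knockout, against 0.030, 0.057 and 0.080 FPKM in non-target replicates (0.31 ± 0.05, SE; limma adjusted p = 0.0109). Non-target replicate 1 was the lowest library for HLA-DRA, HLA-DRB1, HLA-DPA1, CIITA and CD74. Each of the 3 class II calls was lost without non-target replicate 2 or 3, that of HLA-DRB1 also without knockout replicate 3, and that of HLA-DRA also without knockout replicate 2 or 3 (adjusted p up to 0.0665).

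Within a library, the ratio of CD74 to HLA-DRA came out similar in the knockout replicates. CD74 was 8.35, 8.48 and 8.38 times HLA-DRA in knockout replicates 1, 2 and 3, and 10.1, 8.32 and 6.08 times in non-target replicates. The knockout ratios rest on an estimated 17.3 to 21.5 HLA-DRA fragments, too few to resolve ratios this close. The non-target ratios rest on an estimated 1.7 to 6.2 HLA-DRA fragments and straddle those of knockout.

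HLA-DQB1 did not share this pattern. It was the most abundant class II transcript, at 4.01, 3.68 and 5.10 FPKM in knockout, against 5.74, 7.15 and 7.01 FPKM in non-target replicates, below in each knockout library (log2 fold change -0.54 ± 0.18, SE; limma adjusted p = 0.0893, and 0.0275 with a replicate block). Its partner HLA-DQA1 had only 0.409, 0.140 and 0.254 FPKM in knockout and 0.150, 0.030 and 0.047 FPKM in non-target. An annotated antisense gene, HLA-DQB1-AS1, overlaps HLA-DQB1, and the sources used here do not state whether strand was used. The values of HLA-DQB1, of CIITA beside DEXI, of TAP1 beside PSMB9 and of HLA-DPA1 beside HLA-DPB1 are therefore uncertain. So are those of HFE beside H2BC4 and HLA-DMA beside BRD2. HLA-B and NLRC5 are also overlapped by annotated genes on the opposite strand, with the same limit. HLA-DMA, HLA-DOA and HLA-DOB overlapped between groups, with means of 0.359, 0.005 and 0.486 FPKM in knockout and 0.380, 0.00933 and 0.444 FPKM in non-target.

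**Figure D5:**
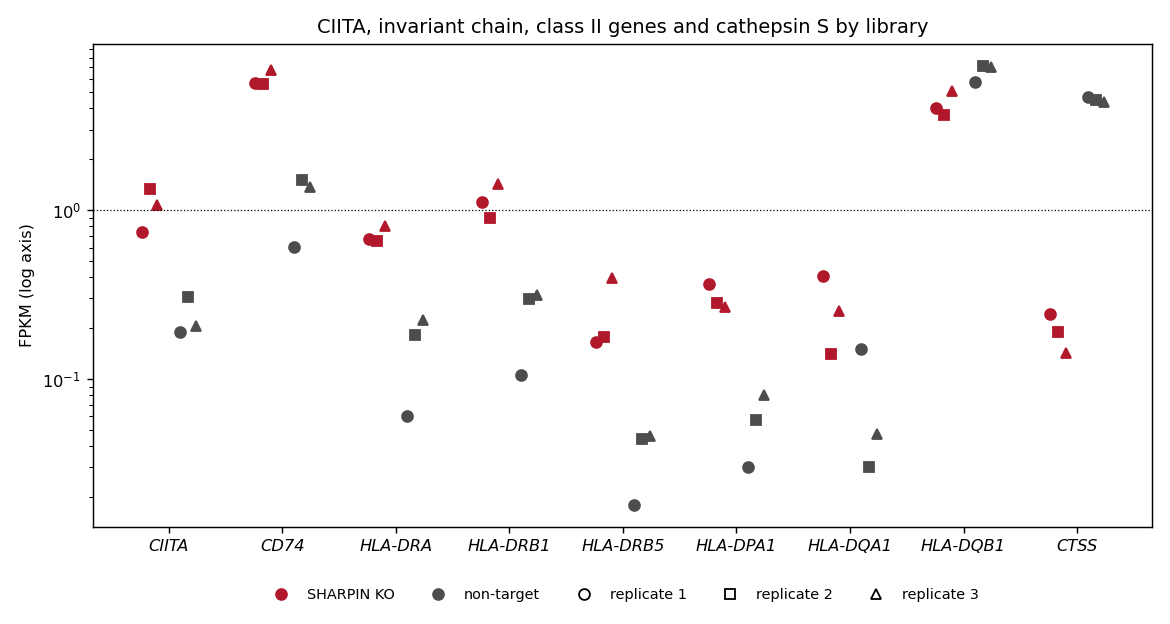
FPKM (log axis) of CIITA, CD74, 6 class II genes and CTSS in each library, knockout left of non-target within each gene; the dotted line marks 1 FPKM. CIITA, CD74, HLA-DRA, HLA-DRB1, HLA-DRB5 and HLA-DPA1 are higher in every knockout library, while HLA-DQB1 and CTSS are lower. HLA-DRB5 rests on an estimated 4.6 to 10.7 fragments in knockout and 0.5 to 1.3 in non-target. With no filter its limma adjusted p was 0.079, and 0.0376 with a pseudocount of 0.1 as well.

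The endosomal proteases that handle the invariant chain went different ways. Of 8 endosomal processing genes tested, 1 rose, 1 fell and 6 did not pass (median log2 fold change -0.06; 2 and 2 with a replicate block). Of all genes, 12.2% passed, and 25.3% with the block. Cathepsin S (CTSS) is the protease known for the late cuts of CD74 in antigen-presenting cells. It had 0.242, 0.189 and 0.142 FPKM in knockout, against 4.70, 4.50 and 4.37 FPKM in non-target replicates. CTSS thus reached the filter only through the non-target libraries. With no filter, where 7.89% of all genes passed, its limma adjusted p was 0.000871. No gene of these lists other than GPA33 fell further (log2 fold change -2.21 ± 0.15, SE; limma adjusted p = 3.63e-05, and up to 0.00208 with 1 library left out). Cathepsin B (CTSB) averaged 56.7 ± 10.7 FPKM in knockout and 29.9 ± 2.80 FPKM in non-target (SD, n = 3 each; 0.89 ± 0.18, SE; limma adjusted p = 0.0114), but did not pass without non-target replicate 2 (0.0624). Cathepsin L (CTSL), another endosomal protease, averaged 18.3 ± 4.49 FPKM in knockout and 22.4 ± 1.30 FPKM in non-target (limma adjusted p = 0.378). SPPL2A, the intramembrane protease that clears the CD74 stub, had 7.98, 15.2 and 10.3 FPKM in knockout, against 16.8, 21.0 and 19.3 FPKM in non-target replicates. It passed as lower with the block (adjusted p = 0.000148, against 0.0573 without it), and cathepsin D (CTSD) as higher (0.0492, against 0.214).

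CD74 at the cell surface is also a receptor for the cytokine MIF, with CD44 and CXCR4 as signalling partners. Of 6 such genes 4 were tested, of which 2 rose and 2 did not pass (median log2 fold change 0.92; the same counts with a replicate block). Among all genes 6.26% passed as higher, and with the block 25.3% passed in either direction. CXCR4, a chemokine receptor, had 68.5, 62.9 and 68.0 FPKM in knockout, against 13.1, 6.76 and 5.66 FPKM in non-target replicates (log2 fold change 2.91 ± 0.26, SE; limma adjusted p = 0.000133). CD44, a hyaluronan receptor, had 113, 66.3 and 64.2 FPKM in knockout, against 43.5, 21.5 and 21.3 FPKM in non-target replicates (1.49 ± 0.31, SE; limma adjusted p = 0.0119). For both, replicate 1 was the highest library in each group. MIF itself was abundant and did not pass, at 550 ± 107 FPKM in knockout and 432 ± 94.7 FPKM in non-target (SD, n = 3 each; adjusted p = 0.369).

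Among factors known from other cells to bind MHC promoters, and genes of the interferon-gamma route, 16 were tested. Of these 0 rose, 14 missed the threshold and 2 fell, a share near the 12.2% of all genes that passed. The median log2 fold change was -0.01. With a replicate block 0 rose and 4 fell, where 25.3% of all genes passed. An unadjusted limma p under 0.05 was found for 4 of the 16, and for 3338 of all 13092 genes tested. IRF8, an interferon regulatory factor of myeloid and B cells, had 0.270, 0.131 and 0.175 FPKM in knockout. Non-target replicates had 1.34, 1.23 and 1.47 FPKM (-0.98 ± 0.13, SE, limma adjusted p = 0.00114). IRF8 reached the filter only through the non-target libraries. With no filter, where 7.89% of all genes passed, its limma adjusted p was 0.00308. ATF1, which binds the CRE-like part of the X box, averaged 10.05 ± 0.390 FPKM in knockout and 16.2 ± 2.08 FPKM in non-target (SD, n = 3 each; -0.63 ± 0.16, SE; limma adjusted p = 0.0311), and did not pass when any library but knockout replicate 1 was left out (up to 0.115). NFYB, a subunit of NF-Y, and the kinase JAK2 passed as lower with the block (adjusted p = 0.0344 and 0.017). IRF1, which the interferon-gamma route induces, did not pass. It averaged 10.7 ± 4.09 FPKM in knockout and 8.95 ± 1.33 FPKM in non-target (adjusted p = 0.73). Of the RFX subunits, RFX5 and RFXAP lay lower in every knockout library without passing (limma adjusted p = 0.198 for both). The same held for 15.7% of all genes tested, passing or not. RFXANK ranged from 9.998 to 33.0 FPKM in knockout and from 14.9 to 18.4 FPKM in non-target.

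The MHC-like ligands of the activating receptor NKG2D gave 0 that rose and 0 that fell among 5 tested by limma, where 12.2% of all genes passed. Their median log2 fold change was 0.27. An unadjusted limma p under 0.05 was found for 3338 of all 13092 genes tested, and for 1 of the 5. That gene, RAET1L, averaged 10.3 ± 5.43 FPKM in knockout and 4.17 ± 1.21 FPKM in non-target (SD, n = 3 each; adjusted p = 0.056), and rose with a replicate block (adjusted p = 7.51e-07). The blocked p-value rests mainly on a spread pooled over genes, not on that of RAET1L.

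CD74, CIITA and class II genes are also carried by antigen-presenting cells of the blood, so their markers were read in the same libraries. Of 11 markers 8 were listed in at least 1 library and none reached the filter; MS4A1, CD3E and TYROBP were listed in none. Their summed level was 0.278 to 0.350 FPKM in knockout and 0.194 to 0.567 FPKM in non-target. PTPRC, the pan-leukocyte antigen, had 0.030, 0.009 and 0.009 FPKM in knockout and 0.036, 0 and 0.031 FPKM in non-target.

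The genes whose pattern over the 6 libraries was nearest to that of B2M, by the root mean square difference of mean-centred log2(FPKM + 1), were ADAP1 (0.0515), HTRA1 (0.0761) and NGRN (0.0911). ADAP1, for example, had 12.7, 10.6 and 15.2 FPKM in knockout, against 20.5, 24.4 and 23.4 FPKM in non-target replicates. Nearest to CD74 were APLP1 (0.154), BCAR1 (0.156) and SFN (0.162). APLP1 had 8.01, 6.83 and 8.43 FPKM in knockout, against 1.21, 1.53 and 1.66 FPKM in non-target replicates.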

How the data were processed

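Poly-A RNA of 6 LoVo cultures or aliquots was sequenced after second-strand dUTP marking, per the labels' protocols. The deposited values are FPKM. Per the series' design text and the submitters' processing notes, the authors aligned reads to hg19 with TopHat2 2.1.1 and computed FPKM with STAR 2.7.10b. Strand use and the treatment of shared fragments are not stated there. Since the values are scaled to the mapped total of a library, strong changes elsewhere can move a gene. Their sum was not the same in all libraries: it was 522919 FPKM in knockout replicate 3 and 416852 to 431264 FPKM in the others.

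Each list was joined by symbol, and a missing symbol was set to 0. Fragments per library were estimated from genes with 1 annotated transcript, as the step of FPKM times kilobases on which most low values fell (77 to 111 of 434 to 516 values per library within 2% of 1 or 2 steps, against 11 to 13 at a typical other step). This rests on a minority of values, so no count test was run. Fragments per gene used the canonical transcript length and are estimates.

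The main fit was limma 3.58.1 in R 4.3.3 on log2(FPKM + 1) with its trend and robust options, two-sided, with Benjamini-Hochberg adjustment over all genes tested. Fold changes on this scale understate those of low genes. The members and the 10 other lists were chosen with earlier results of these data known. A few list genes are not reported here and were left out of the list counts. Named genes are the members, SHARPIN, up to 4 genes per list that passed, by size of change (where none did, the lowest p), the 3 nearest patterns to B2M and CD74, and further list genes where they are spelled out, some chosen after their values were seen. Motifs were chosen after the promoter sequences were read; alignments used Biopython 1.88. Gene positions are from GENCODE on GRCh37, the authors' build; promoter sequences are RefSeq on GRCh38.p14.

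Replicate numbers are shared by the groups. Libraries of the same number deviated together from their group means (r = 0.547, 0.309 and 0.331 for numbers 1, 2 and 3). The labels do not say that the numbers mark a shared batch. The main fit therefore had no replicate block and is not paired, and a blocked fit is given beside it. Numbers 2 and 3 were also alike across groups (0.320 and 0.321), so these values do not single out a pairing of 2 with 2 and 3 with 3. In the blocked fit the SE was similar for genes of unlike spread. It was 0.183 for CTSS and 0.172 for CXCR4, against 0.0431 and 0.331 on each gene's own spread with no block. Blocked p-values therefore hardly measure a gene's own spread and can be too small.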

Additional observations from a re-analysis of the deposited data

How the results depend on the processing

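Of 13092 genes, 1597 passed; 3309 did with a replicate block, 715 on each gene's own spread, 944 with non-target replicates 2 and 3 counted as 1 sample, and 911 to 1970 with 1 library left out. The members past the threshold numbered 2; 1 passed on each gene's own spread and with non-target replicates 2 and 3 as 1 sample, and 1 to 3 with 1 library left out. B2M was the one that lost its call (adjusted p = 0.0584 and 0.0515). With non-target replicates 2 and 3 as 1 sample, CTSB (0.0543), CANX (0.166), ATF1 (0.113), KRT20 (0.0985), ADAP1 (0.0908) and NGRN (0.0887) lost theirs too. TAP2, near 0, turned to -0.059 with TPM scaling and -0.020 with median-ratio scaling, and ranged from -0.09 to 0.15 with 1 library left out; SHARPIN ranged from -0.41 to 0.17 in such fits. Beside the calls given in the report, a replicate block ended no call of a named gene. On each gene's own spread FCGRT, CALR, CANX, CTSB, CD44, ATF1, KRT20, ADAP1 and NGRN also lost their calls (adjusted p of 0.0501 to 0.192). The share of higher genes among those past the threshold was 39.9% with no filter and 40.0% on each gene's own spread. The causes were not tested. Class II genes rest on few fragments, which limits their fold changes. Leave-one-out and blocked fits with no filter, and no filter with a pseudocount of 0.1, were added after seeing the data; in the last CIITA passed at adjusted p = 0.0138.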
